A study of Caenorhabditis elegans with 2 samples.

Results

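The M-line and attachment scaffold genes of Caenorhabditis elegans muscle were examined for enrichment of the muscle transcription factor PAT-9. The set holds 10 protein-coding genes, listed by function, of 19973 protein-coding genes in all: unc-95, unc-96, unc-98, lim-8, lim-9, alp-1, cpna-1, unc-23, unc-82 and scpl-1. All regions whose summit lay from 3000 bp upstream of a gene to its end were taken, which gave 58 of the 30000 regions called on the pooled reads, 57 of 30000 in replicate 1 and 56 of 30000 in replicate 2. Chromatin immunoprecipitation and sequencing (ChIP-seq) was done on whole late embryos of strain RW12085, with an age label of 3 hours, of pooled sexes, synchronised by egg bleaching. The strain carries a CRISPR insertion at pat-9 that one label field gives as mNG with 3xFlag and others as a GFP fusion, and the antibody was against GFP. The 2 biological replicates form 1 group, so no second condition exists and no test between groups could be made.

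Body wall muscle of the worm anchors its filaments to the cell membrane, thin filaments at dense bodies and thick filaments at M-lines, and both structures sit on integrin receptors that hold the muscle to the basement membrane and the hypodermis. LIM-domain proteins such as UNC-95, LIM-8, LIM-9 and ALP-1 act as scaffolds there, and UNC-96, UNC-98, CPNA-1 and SCPL-1 belong to the protein network of the M-line around the giant protein UNC-89. PAT-9 is a zinc finger factor that embryos need to build working muscle. The embryos were whole animals, so a region can come from any tissue in which the factor was present.

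Enrichment at the 10 genes was mostly below the level the authors called reproducible. Their reproducibility filter (IDR) kept 735 optimal peaks, all of them the top of the pooled list when regions are ordered by signal, and 1 of the 10 genes, unc-23, had one in its window. The background share was 4.9% of all protein-coding genes, and 7.87% of the 5810 genes with windows in the members' range of 6246 to 41919 bp. Within that range the members' windows were long, with a median of 14673.5 bp against 8320 bp, so neither share is matched on length. All 10 genes had at least 1 pooled region, as did 67.7% of protein-coding genes. Without summits within 200 bp of a small RNA gene it was again 1 of 10, with a background of 3.64%. With 2 times the number of peaks, lim-8 and alp-1 joined unc-23, which made 3 of 10 against a background of 9.05%. This share is over all protein-coding genes and is not matched on length. The lim-8 summit lay inside a tRNA gene, and without summits near small RNA genes the best rank of lim-8 was 18022.

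For 9 of the 10 members the strongest region was below the optimal level, and for all but unc-95 it ranked better than the median gene with a region. The best pooled rank, where rank 1 is the strongest region, was 457 for unc-23, 962 for lim-8, 1348 for alp-1, 2213 for unc-98 and 2602 for unc-82. It was 3720 for unc-96, 3797 for lim-9, 4582 for scpl-1, 5513 for cpna-1 and 9336 for unc-95. Their median was 3161, against 8374 over the 13523 protein-coding genes with a region and 5925.5 over those with windows in the members' range; a longer window holds more regions and so more chances of a good rank. Of the genes with a region, 4.58% had a better rank than unc-23 and 53.9% a better rank than unc-95. Counted by region, 6 of the 58 (10.3%) lay in the strongest 10% of the pooled list and 26 (44.8%) in the stronger 50%, so the regions as a whole were spread over the list much like all regions.

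**Figure D1:**
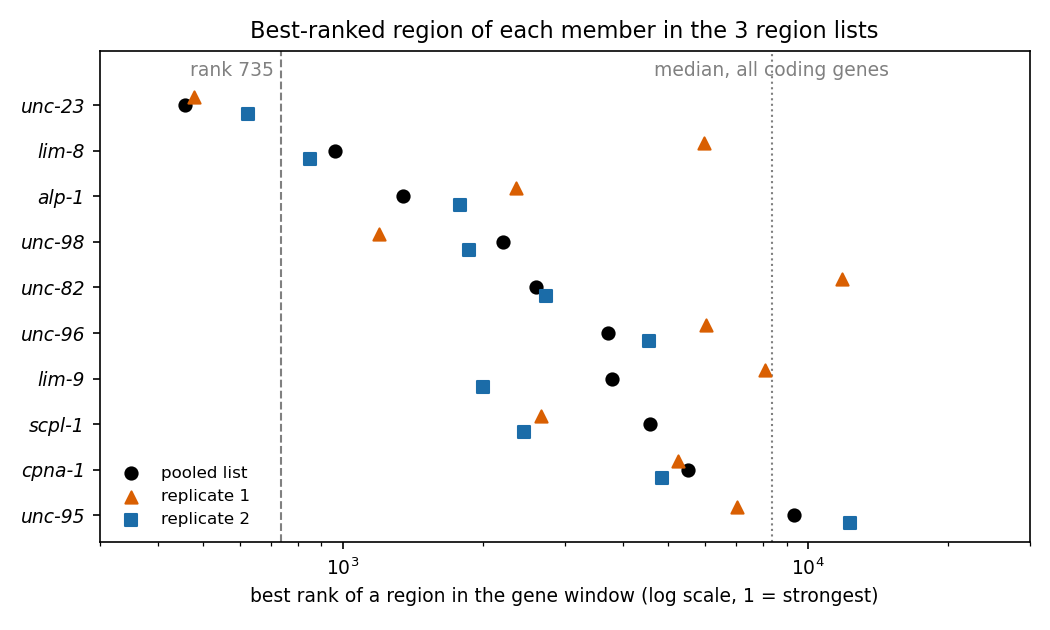
Best rank of any region in the window of each member (rows) on a log axis, in the pooled list (black circles), replicate 1 (orange triangles) and replicate 2 (blue squares). The dashed line marks rank 735, the number of optimal peaks, and the dotted line the median of 8374 over all protein-coding genes with a pooled region; unc-23 lies left of the dashed line in all 3 lists and the 9 other members lie right of it in all 3.

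unc-23, which codes for a BAG-domain cochaperone that keeps muscle attached under mechanical load, had the single optimal peak of the set, at its promoter. The peak spanned 8936077 to 8936506 on chromosome V. Its summit was 67 bp before the most upstream 5′ end. Its signal value was 125.3 in the pooled list, 51.1 in replicate 1 (rank 480) and 69.9 in replicate 2 (rank 626); signal values hold within a list only. Both replicates thus placed the site among their own 735 strongest. Counted by window, 1 of the 10 members had a region among the 735 strongest of each replicate, beside 3.06% of protein-coding genes. In this count the regions of the replicates need not lie at the same site. A second site of unc-23 lay in intron 1, 214 bp upstream of the internal start at 8937215, from 8936786 to 8937215 with a signal of 79.5 and pooled rank 1287. It was at rank 3110 in replicate 1 and 1400 in replicate 2. The third, weak region (signal 33.8, rank 15362) lay in the 3′ UTR, which overlaps T19A5.3 on the other strand.

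The sequences at the strongest summits are shown for unc-23 and the next 3 members by rank, to set a promoter site beside sites that fall in noncoding genes. They are from the RefSeq assembly WBcel235, read on the strand of the gene and, except at unc-98, centred on the summit. Capitals mark matches to the word GAGAGA, to the word ACGCGC (seen here as its reverse complement) or to the word GTTCGA, which belongs to the internal promoter of tRNA genes. At unc-98 only the bases upstream of the annotated 5′ UTR are given, so the summit itself is not among them.

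unc-23, chrV:8936242-8936342, plus strand: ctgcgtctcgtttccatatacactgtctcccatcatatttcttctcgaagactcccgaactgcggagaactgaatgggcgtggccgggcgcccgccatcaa

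lim-8, chrIII:6805550-6805650, plus strand: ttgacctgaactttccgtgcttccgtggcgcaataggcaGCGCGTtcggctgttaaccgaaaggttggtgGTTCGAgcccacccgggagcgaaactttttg

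alp-1, chrIV:8851036-8851136, plus strand: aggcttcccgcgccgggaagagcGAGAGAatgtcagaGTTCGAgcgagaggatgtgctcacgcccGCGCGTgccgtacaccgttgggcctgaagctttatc

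unc-98, chrX:7573620-7573651, minus strand: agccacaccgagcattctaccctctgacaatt

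Among the LIM-domain scaffold genes, the strongest sites of lim-8 and alp-1 both had the summit inside an annotated noncoding gene. lim-8 codes for a protein of the M-line network with a LIM domain. Its region, on chromosome III from 6805385 to 6805814, lay in intron 2 of 18 of one of its 3 transcripts, and the summit was 32 bp inside a tRNA gene (WBGene00023018, 6805568 to 6805640, same strand) that carries no symbol. The nearest start of lim-8 itself was 932 bp downstream, at an internal 5′ end. The signal was 89.9 in the pooled list, against 101.3 for the weakest optimal peak. It was 25.1 at rank 5967 in replicate 1 and 62.0 at rank 849 in replicate 2, so the replicates placed it far apart. The 2 other pooled regions of lim-8 had signals of 31.5 (rank 18022) and 31.4 (rank 18062). Without summits within 200 bp of a small RNA gene, the best rank of lim-8 was therefore 18022.

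alp-1, the gene of the ALP/Enigma protein of dense bodies with PDZ and LIM domains, had its strongest region 1408 bp upstream of the first start, on chromosome IV from 8850871 to 8851300. The summit lay inside a pseudogene (WBGene00044914, 8850865 to 8851127) that carries no symbol, and no protein-coding gene had a start nearer than alp-1. The signal was 78.3 in the pooled list, 32.1 at rank 2360 in replicate 1 and 46.4 at rank 1791 in replicate 2. The only other pooled region of alp-1, in intron 4 of 12, was weak (signal 25.9, rank 26296) and also lay inside T11B7.5. The window of alp-1 held 0.157 pooled regions per kb, the lowest of the 10 genes.

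lim-9, which codes for an FHL-type LIM protein of M-lines, is the longest of the genes at 38919 bp and has 8 annotated starts. It held 10 pooled regions, of which 9 lay in introns and 1 in the 3′ UTR. The strongest (chromosome I, 9187820 to 9188249, signal 55.0, rank 3797) lay 2999 bp upstream of the nearest internal start, and the next (9199902 to 9200331, signal 51.1, rank 4747) 806 bp upstream of another. At these 2 sites replicate 2 gave ranks 2001 and 3433 and replicate 1 ranks 10795 and 9747. The region nearest to the first start of lim-9 lay 9414 bp downstream of it, and the 8 weaker regions had ranks from 14369 to 26159.

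unc-95, whose LIM-domain product sits at dense bodies and M-lines, had the last best pooled rank of the set. Its strongest region (chromosome I, 14381352 to 14381781, signal 41.0) had the summit in a coding exon 3170 bp downstream of its only start, at rank 10168 in replicate 1. In replicate 2 the best overlapping region was at rank 12301 and the one with the nearest summit at 18334. The gene with the nearest start was Y105E8A.32. The region next to the unc-95 start, 371 bp upstream, had a signal of 31.2 and rank 18356.

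Of the M-line genes without LIM domains, unc-98 and unc-96 had their strongest region at the start of the gene. UNC-98 is a zinc finger protein found at M-lines and in nuclei. Its region on chromosome X from 7573386 to 7573815 had the summit 18 bp inside the gene, in the 5′ UTR, with a signal of 65.6. It overlapped a region at rank 1198 in replicate 1 (38.1) and one at 1868 in replicate 2 (45.7), both better than its pooled rank. The replicate 1 summit lay 176 bp from its own and 28 bp from that of the neighbouring pooled region at rank 8479. The strongest pooled summit lies within pcyt-1, on the opposite strand and 1244 bp from the 5′ end of that gene. It also lies within F08C6.18 (7573590 to 7573628), annotated as protein-coding on the same strand as unc-98. A region there therefore cannot be given to 1 gene. For the 3 weaker regions of unc-98 the nearest coding start was that of F08C6.18, pcyt-1 or apy-1.

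UNC-96, a partner of UNC-98 at M-lines, had its strongest region on chromosome X (621521 to 621950), 446 bp before its only start. The signal was 55.3 in the pooled list. The site was at rank 6043 in replicate 1, and its signal was 34.1 (rank 4560) in replicate 2. The 3 other regions of unc-96 had signals from 24.9 to 31.6.

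The genes of 2 enzymes and of the copine-domain protein each had their strongest region in an intron. unc-82, which codes for a serine/threonine kinase that organises thick filaments, has 7 starts and 5 pooled regions, all in introns. The strongest (chromosome IV, 7426159 to 7426588, signal 62.2, rank 2602) lay 645 bp downstream of the start at 7425729. A pair of overlapping regions flanked the starts at 7428920 and 7428934: one summit lay 209 bp downstream (signal 54.8, rank 3840) and the other 33 bp upstream (43.7, rank 7761). The strongest region was at rank 3112 in replicate 2 and 11815 in replicate 1. Both regions of the pair shared their best-ranked partners, at rank 2732 in replicate 2 and 14298 in replicate 1. The first start of unc-82 had no pooled region upstream of it.

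scpl-1, the gene of a small CTD-type phosphatase that binds UNC-89, held 12 pooled regions in a window of 18748 bp, or 0.640 per kb. The density was similar at unc-98 (0.640) and unc-95 (0.627). The median was 0.233 over protein-coding genes and 0.300 over those with windows in the members' range, genes without a region included. The 2 strongest regions of scpl-1 both lay within 200 bp of a snoRNA gene. The region from 10092338 to 10092767 on chromosome I (signal 51.7, rank 4582) had the summit 109 bp from B0379.12 inside intron 3 of 10, and that from 10103157 to 10103586 (49.8, rank 5138) lay 166 bp from B0379.13 and 1360 bp upstream of scpl-1. The former overlapped a region of replicate 2 (rank 2452) and none of replicate 1, and the latter one of replicate 1 (rank 8005) and none of replicate 2. Without summits near small RNA genes the best rank of scpl-1 was 8796, at a site in intron 2 whose nearest coding start was that of B0379.6. By nearest summit this site was at rank 5900 in replicate 1 and 18934 in replicate 2. It also overlapped the best region of scpl-1 in replicate 1, at rank 2665 with its summit inside B0379.6. The weakest pooled region, in the 3′ UTR (rank 28548), overlapped regions at rank 2982 in replicate 1 and 2251 in replicate 2. Their summits lay 92 and 325 bp from its own. With an overlap of at least 1 bp in place of the summit, the best pooled rank was 2697.

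cpna-1, which codes for the copine-domain protein CPNA-1, held 11 pooled regions with signals from 24.2 to 48.8. The strongest (chromosome II, 4187145 to 4187574, rank 5513) lay in intron 2, 684 bp downstream of the nearest of its 3 starts, which lie within 12 bp of each other. It was at rank 5269 in replicate 1. In replicate 2 the region with the same summit was at rank 12594, and an overlapping one at a neighbouring site at 8374. The best region of cpna-1 in replicate 2, at rank 4858, lay elsewhere, 2507 bp upstream of the first start. It overlapped the pooled region at rank 8098, which had no partner in replicate 1 and had its nearest coding start in R03H10.11. The genes mth-1 and mth-2 lie within cpna-1 on the other strand. For 7 of the 11 regions the nearest protein-coding start was in one of these genes or in R03H10.11 and not in cpna-1 itself.

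**Figure D2:**
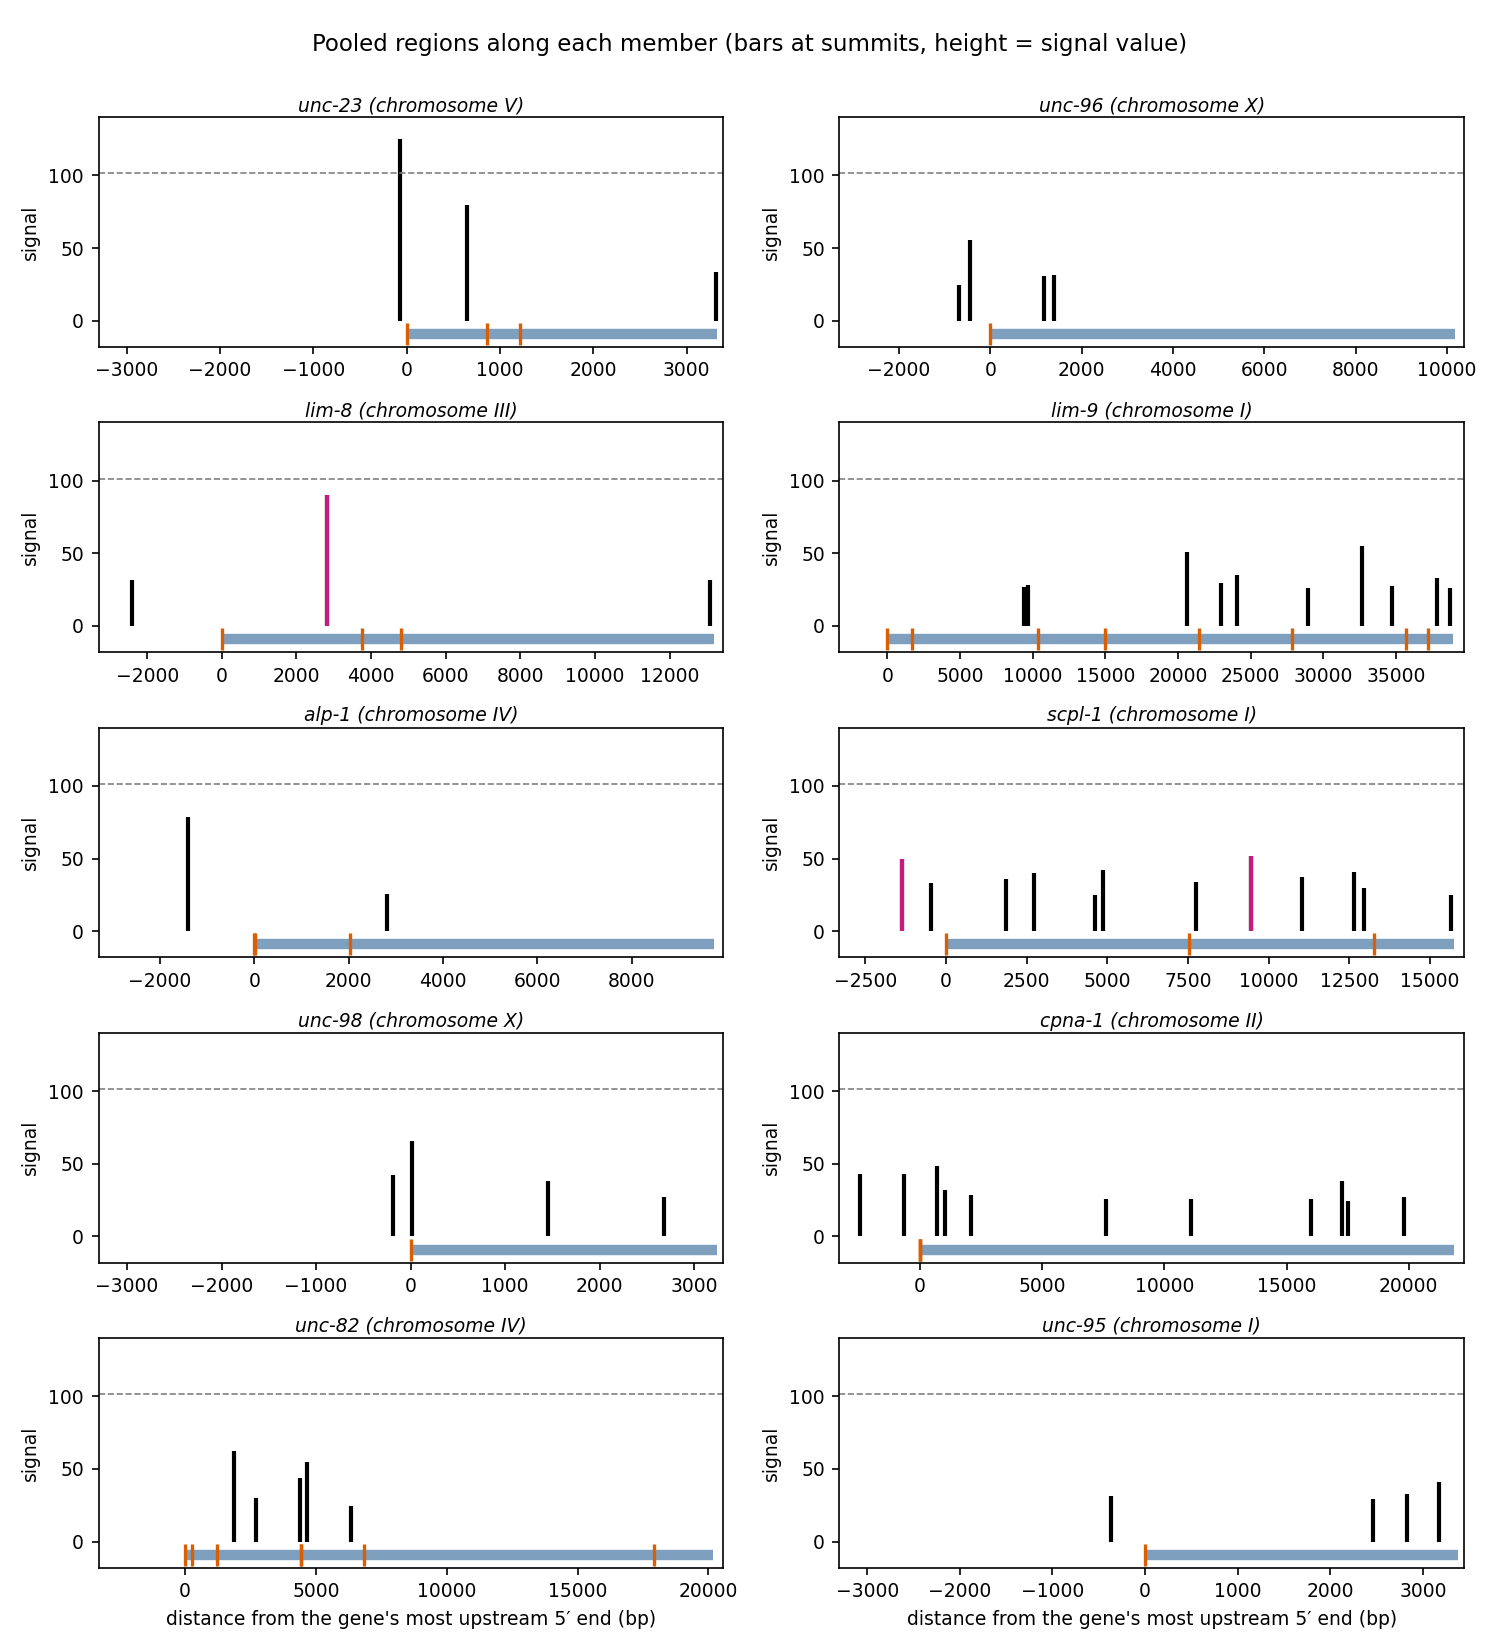
Pooled regions along each member, plotted by distance of the summit from the most upstream 5′ end in the direction of transcription (bp), with bar height the signal value of the pooled list. Blue bars mark the gene, orange ticks its annotated starts, pink the summits within 200 bp of a tRNA or snoRNA gene, and the dashed line the lowest signal of an optimal peak (101.3); only the unc-23 promoter bar crosses it, and the pink bars are the strongest region of lim-8 and the 2 strongest of scpl-1.

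Most summits lay away from the starts of the genes, both in the set and over all protein-coding genes. Of the 58 pooled regions 38 had the summit in an intron of the gene, 11 upstream, 4 in a coding exon, 4 in a 3′ UTR and 1 in a 5′ UTR. The summit was within 500 bp of a start of the gene for 11 of 58, against 24.8% of all 37692 pairs of a protein-coding gene and a region in its window. Of the 10 strongest regions 3 were that near, those of unc-23, unc-98 and unc-96. This is close to the share of 30.4% over all genes with a region. These shares are not matched on length. The median window was 14673.5 bp for the members and 5027 bp over all protein-coding genes, and a longer window holds more positions far from a start. Summits within 200 bp of a small RNA gene made up 3 of 58 (5.17%), against 2.2% of all pooled regions and 32.8% of optimal peaks.

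The strongest sites held the words that are common at strong peaks in some members only. GAGAGA, searched on both strands in a window of the printed length around each summit, was present at 13 of 58 member regions (22.4%), in 7 of the 10 genes, against 9.71% of all pooled summits and 19.5% of optimal ones. It occurred at 3 of the 5 regions of unc-82, at 3 of those of scpl-1 and at the strongest site of alp-1, unc-82 and lim-9. ACGCGC was present at 2 of 58 (3.45%), the strongest sites of lim-8 and alp-1, against 3.26% of pooled and 12.4% of optimal summits. GTTCGA, added after the sequences were seen, was present at 3 of 58 (5.17%), among them the same sites of lim-8 and alp-1, against 3.86% and 15.5%. CAGCTG, an E-box of the kind that the MyoD homologue HLH-1 binds, was present at 2 of 58 (3.45%) and at 0 of the 10 strongest sites, against 2.56% and 2.86%. A match is a description of the letters in the window. The 10 strongest summits held 47.4 ± 9.25% G and C (SD over regions, n = 10), ranging from 32.7% at scpl-1 to 62.4% at alp-1, and all 58 member summits held 40.7 ± 8.06%. By comparison, all pooled summits held 41.1 ± 9.05% (n = 30000) and optimal ones 50.5 ± 7.23% (n = 735).

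The replicates placed several members apart, among them lim-8, lim-9 and unc-82. For scpl-1 the best ranks were close, 2665 in replicate 1 and 2452 in replicate 2, but at different sites. The same held for cpna-1, with 5269 in replicate 1 and 4858 in replicate 2. The best ranks of lim-9 and unc-82 also came from different sites. Best ranks by gene, and their medians and counts, therefore need not compare the same site. Over the 10 genes the median best rank was 5618 in replicate 1 and 2226.5 in replicate 2, while over all protein-coding genes with a region it was 8897 and 8864. Over the genes with windows in the members' range it was 6266 and 6233, so in replicate 1 the members' median was close to that of these genes. The best rank was better in replicate 2 for 7 genes and in replicate 1 for unc-23, unc-98 and unc-95. By region the order was not the same: of the 31 member regions with a partner in both lists 13 (41.9%) ranked better in replicate 2, against 50.6% of all such pooled regions, and of the strongest regions 5 of 9 did. Of the strongest pooled regions of the members 9 of 10 overlapped a region in each replicate, and 82.5% of all pooled regions with ranks from 457 to 9336 did. Of all 58 member regions 31 (53.4%) overlapped a region in both lists, against 49.9% of the whole pooled list, 23 in 1 list and 4 in neither. Neighbouring pooled regions can share a replicate region, as at unc-98 and unc-82, so these counts are not of independent sites. The lists do not give the depth of either library, and the part of depth in the difference between replicates was not tested.

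**Figure D3:**
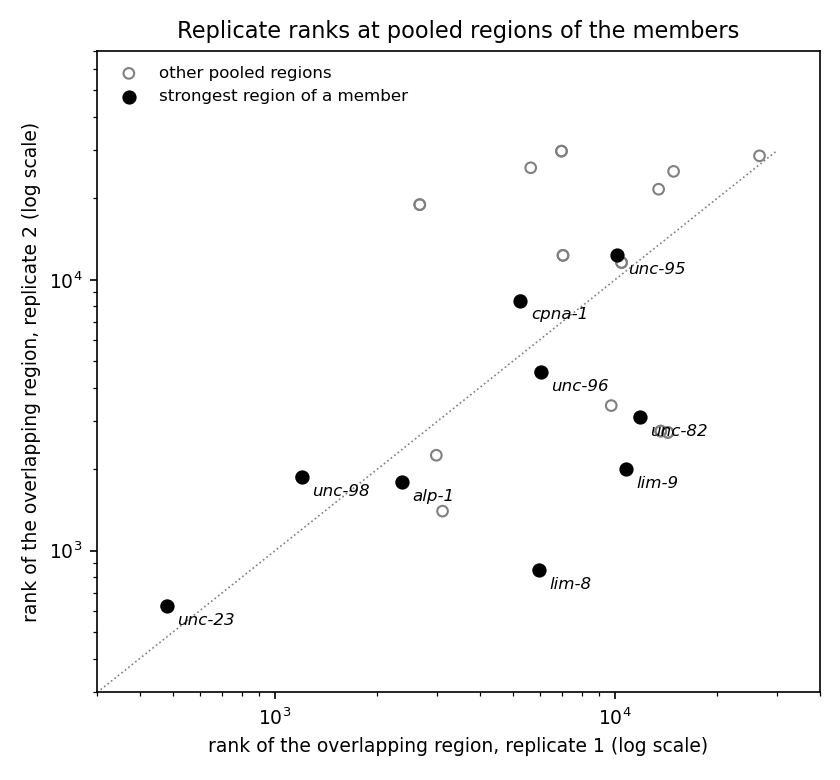
Rank of the best-ranked overlapping region in replicate 1 (x axis) and replicate 2 (y axis), both on log axes where low is strong, for the 31 pooled regions of the members that overlap a region in both (some points coincide). Filled circles are the strongest pooled region of a member and the dotted line is equal rank; unc-23 lies lowest on both axes, and lim-8, lim-9 and unc-82 lie far below the line, with a better rank in replicate 2.

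Other genes of the same structures gave values to set beside these, in the same windows and with the same lists. Of 16 genes of the integrin adhesion complex and the dense body 8 had an optimal peak, where the background was 4.9%. These were the integrin gene pat-3 (rank 79), the gene of the immunoglobulin-domain protein DIM-1 (236), the kindlin gene unc-112 (250), the integrin-linked kinase gene pat-4 (304), the Ras suppressor homologue rsu-1 (406) and the tensin gene tns-1 (422), followed by zyx-1 for zyxin (507) and tln-1 for talin (650). At pat-3 and pat-4 the summit was nearer to the start of another gene, ccdc-47 (153 bp upstream of it) and C29F9.8, and when a summit was given only to the gene with the nearest start 6 of 16 had a peak (background 2.86%). The median best rank of this list was 1187.5.

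Of 11 M-line and thick filament partners 6 had an optimal peak: the titin gene ttn-1 (rank 117), the paramyosin gene unc-15 (240), git-1 (343), the protein kinase N gene pkn-1 (384) and the myosin heavy chain genes unc-54 (566) and myo-3 (680). The git-1 summit was nearer to the start of mboa-7. The obscurin gene unc-89, at the centre of the network of CPNA-1, SCPL-1 and LIM-9, was at rank 926, and mel-26 was last at 25145. In a promoter window (1000 bp before to 500 bp after any start), where the background was 2.58%, a peak was held by 2 of the 11 and by 5 of the 16 adhesion genes. unc-23 was likewise the 1 member of the set with a promoter peak.

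Of 4 chaperone genes, hsp-1, which codes for the Hsc70 partner of UNC-23, had an optimal peak at rank 137, 368 bp upstream of a start. unc-45, the myosin chaperone gene, was at 1069, with the nearest start in F30H5.5. Among 8 genes of the hypodermal fibrous organelles, which face the muscle across the basement membrane, 0 had an optimal peak, and with a background of 4.9% a count of 0 in a list this short is near the share over all genes. In this list vab-10 was best at 1380 and the median was 2666.5. Among 8 other LIM-domain genes outside the homeobox family 2 had one, zyx-1 and unc-115 (rank 346), and the unc-115 summit lay inside a small RNA gene. Of these 8 genes, zyx-1, unc-97, pxl-1 and tes-1 are also in the adhesion list. The same background applies to the chaperone and LIM-domain counts. It is not matched on length for any of these lists, and the fibrous organelle list had a median window of 19129.5 bp. The differences between these lists and the 10 members were not tested.

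**Figure D4:**
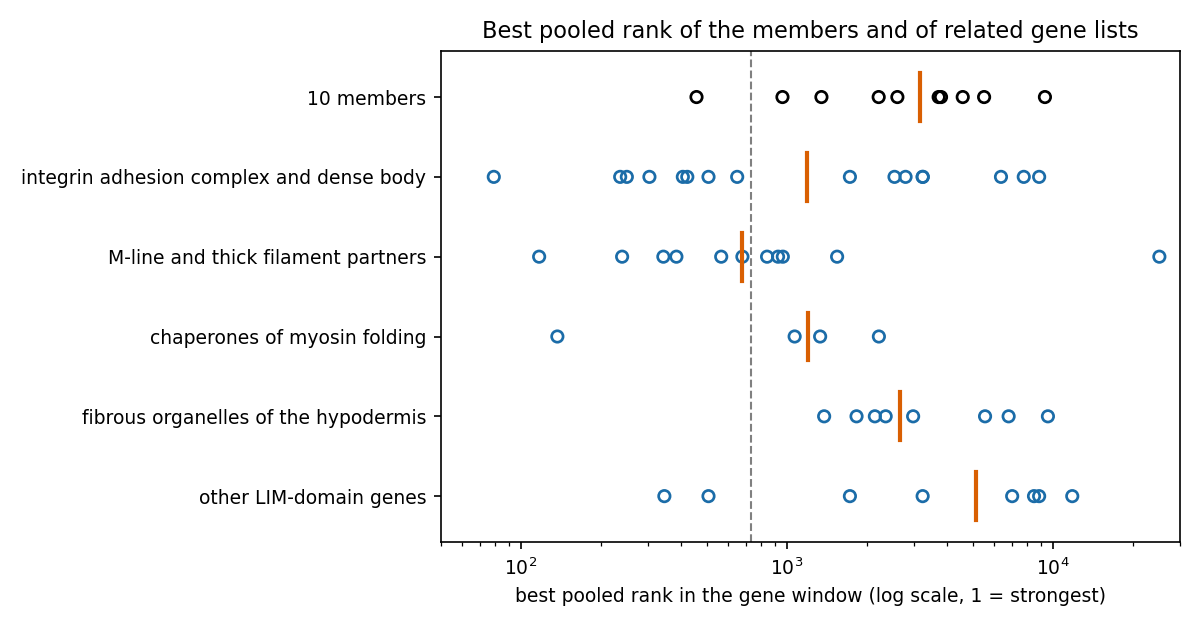
Best pooled rank in the gene window (log axis) for the 10 members and for each related gene list; each circle is 1 gene, orange bars are medians, and the dashed line is rank 735. The members have 1 gene left of the line and a median of 3161, the adhesion list has 8 genes left of it and a median of 1187.5, and the fibrous organelle list has none.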

How the data were processed

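The deposited region lists are narrowPeak files on ce11. Per the deposited descriptive text, each replicate's list came from its own alignments and a control, the pooled list from both replicates and that control, and the optimal list from all 3 through IDR. Which aligner, caller and IDR threshold were used is not stated. The authors' signal value for each deposited region served only to rank and describe regions within a list, and the authors' deposited −log10 q was not used. Depth per sample is unknown, and 2 replicates limit the precision.

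Genes came from Ensembl release 115 (WBcel235, which is ce11). A region belonged to every gene whose window, from 3000 bp upstream to the gene's end, held its summit. Distances are to the nearest of the gene's transcript 5′ ends. Replicate partners overlapped the pooled region by at least 1 bp, and the best-ranked was taken unless the nearest summit is named. Genes of tRNA, rRNA, snRNA and snoRNA counted as small RNA genes. No test was made: counts and medians stand beside those over all protein-coding genes. Among the related-list symbols daf-21, an older name of hsp-90, was counted once as hsp-90. The named genes are all members, of each related list the genes with an optimal peak and some of the next best-ranked, and neighbours with nearer starts; unc-89, mel-26 and the word GTTCGA were added after their values or sequences were seen. The members and lists were chosen with earlier results of these data known. The assignment of summits to genes was tested on simulated data. Python 3.11.15, NumPy 2.4.6, pandas 2.3.3 and matplotlib 3.10.9 were used.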

Additional observations from a re-analysis of the deposited data

How the results depend on the processing

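The count of 1 member with an optimal peak, unc-23, was the same in 5 other windows and assignments (promoter window, 1000 bp or 5000 bp upstream, overlap of at least 1 bp, nearest start only), without summits near small RNA genes, with rows of equal coordinates counted once, and in each replicate's list alone. It was 0 with the stronger 50% of the number of optimal peaks (367 regions) and 3 with 2 times the number (1470 regions). The count of members among the strongest of both replicates was 0 at the stronger 50%. The median best rank of the members ranged from 2226.5 to 5618 when 1 replicate was left out, the higher value without replicate 2, and from 2649.5 to 3840 under the other settings. Of 89 alternative ranks of single members 71 moved by less than the SD between that gene's 2 replicate best ranks and 18 by more. Those that changed most were alp-1, which had no region in the promoter window and rank 26296 from 1000 bp upstream, and lim-8 without small RNA sites, at 18022. The SD is wide where the replicates differ, and the ranks without 1 replicate are the values that set it. A move of lim-9 from 3797 to 8078 thus fell within its SD, and one of unc-23 from 457 to 626 did not. The count of 71 therefore does not measure how stable the ranks are. For the related lists, 25 alternatives chosen after seeing the data left 20 counts within 1.5 times of the value given and moved 5, of which 3 were promoter-window counts. Taking the replicate region with the nearest summit, also chosen after seeing the data, gave another partner at 9 of the 58 member regions and at 2 of the 10 strongest (unc-95 and cpna-1), and 12 of 31 then ranked better in replicate 2. No paired analysis was possible because the 2 replicates form 1 group with no second condition.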
